A study of Mus musculus with 2 samples.

Results

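Open chromatin peaks at alternative promoters are described here: accessible regions at start sites of a protein-coding gene that had another accessible start site 2 kb or more away. DNase-seq, which maps where the enzyme DNase I can cut chromatin, was run on nuclei from the left cerebral cortex of 2 mice. Both were 10-day-old females of B6CASTF1/J, hybrids whose parents are the inbred strains C57BL/6J and CAST/EiJ, and reads were not assigned to a parental allele. The labels give them as biological replicates 1 and 2 from separately numbered animals under 1 strain-level donor entry, with no treatment and no second group, so no conditions could be compared. A peak of replicate 1 was shared when it overlapped a peak of replicate 2, and it was a member when its midpoint lay within 500 bp of such a start site and not within 1 kb of the 5′ end of another protein-coding gene. This gave 1818 member peaks of 50856 shared peaks, at 1524 promoters of 709 genes, where member peaks of a gene with start sites under 2 kb apart counted as 1 promoter. Of the 14897 shared peaks at coding start sites, 1695 were left out for lying near another gene. Members were chosen by the peak calls of both libraries, so presence and signal are given as descriptions, and no difference in the text was tested. None of the 709 genes was a clustered protocadherin, 1 (Pakap) had readthrough transcripts only, and 3 (Pxn, Asap2 and Btbd8) had some.

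Many genes can begin transcription at more than 1 place. Alternative promoters join different leading exons to a common body, which changes the untranslated leader or the N-terminus of the protein, and they place the same gene under the control of different DNA elements. Promoters rich in the dinucleotide CpG are typically open in many cell types, while CpG-poor promoters are more often specific to a tissue. In brain, genes for synaptic adhesion, the cytoskeleton and cyclic AMP signalling are known for long and short protein forms from separate promoters.

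The pairs of sequences that follow show how unlike in CpG the open promoters of a single gene can be, with every CpG in capitals; they were chosen after their values were seen. Each is the 120 bases just before an annotated start site, on the strand of the gene and read from 5′ to 3′, in the GRCm38.p6 assembly, and no annotated exon overlaps any of them.
Lsamp, 5′-most open promoter (chr16:39984241-39984360, plus strand): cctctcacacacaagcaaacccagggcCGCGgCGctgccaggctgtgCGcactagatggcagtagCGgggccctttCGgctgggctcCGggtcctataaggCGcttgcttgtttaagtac
Lsamp, downstream open promoter (chr16:41532738-41532857, plus strand): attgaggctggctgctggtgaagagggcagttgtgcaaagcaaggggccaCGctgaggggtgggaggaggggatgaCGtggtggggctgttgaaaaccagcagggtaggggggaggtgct
Rbfox2, 5′-most open promoter (chr15:77307005-77307124, minus strand): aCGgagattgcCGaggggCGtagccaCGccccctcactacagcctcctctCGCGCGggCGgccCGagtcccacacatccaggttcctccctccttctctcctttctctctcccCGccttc
Rbfox2, farthest downstream open promoter (chr15:77153813-77153932, minus strand): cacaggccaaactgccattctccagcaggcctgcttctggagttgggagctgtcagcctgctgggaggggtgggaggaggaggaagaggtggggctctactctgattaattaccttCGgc
Kdm2a, 5′-most open promoter (chr19:4397096-4397215, minus strand): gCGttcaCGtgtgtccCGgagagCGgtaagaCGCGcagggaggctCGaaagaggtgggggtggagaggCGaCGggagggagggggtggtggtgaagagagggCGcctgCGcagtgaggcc
Kdm2a, downstream open promoter (chr19:4334002-4334121, minus strand): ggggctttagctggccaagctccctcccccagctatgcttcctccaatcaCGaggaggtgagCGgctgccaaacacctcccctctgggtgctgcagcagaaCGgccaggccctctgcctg
Inpp5f, 5′-most open promoter (chr7:128611208-128611327, plus strand): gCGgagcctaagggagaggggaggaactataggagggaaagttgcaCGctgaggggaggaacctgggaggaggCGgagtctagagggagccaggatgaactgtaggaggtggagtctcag
Inpp5f, downstream open promoter (chr7:128688369-128688488, plus strand): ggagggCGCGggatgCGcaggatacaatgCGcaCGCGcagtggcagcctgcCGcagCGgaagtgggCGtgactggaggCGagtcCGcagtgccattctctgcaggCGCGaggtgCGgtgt
These windows lay wholly inside the strongest peak of their promoter. Both windows of Lsamp, a cell adhesion gene of the limbic system, had 62.5% G and C, yet the upstream window held 8 CpG and the downstream window 2. For Rbfox2, a splicing regulator of neurons, the counts were 10 and 1, and for Kdm2a, a histone demethylase that binds unmethylated CpG, 11 and 3. Inpp5f, an inositol phosphatase gene with an imprinted internal transcript, had the opposite order, with 3 CpG upstream and 14 downstream.

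Most genes with alternative open promoters had 2 of them, many kilobases apart. Of the 709 genes, 617 had 2 open promoters, 78 had 3, 10 had 4 and 3 had 5. The remaining gene, Huwe1, met the rule only through start sites spaced under 2 kb in a chain. It is left out of comparisons between promoters, which rest on 708 genes, except for the start codon classes, which cover all 709. The outermost open start sites of a gene were a median of 32.5 kb apart, with the middle 50% between 10.1 and 95.7 kb. They were under 5 kb apart in 99 genes and over 100 kb apart in 170. Member genes made up 3.23% of all 21938 protein-coding genes, 6.1% of the 11617 with annotated start sites 2 kb or more apart, and 10.7% of the 6612 of these with a shared peak at a start site. The median member gene was 86.4 kb long with 8 annotated start sites. The 5903 genes of the last group with a single open promoter, or several under 2 kb apart, had medians of 37.2 kb and 6 start sites. Peaks near another coding gene were left out before this grouping. With them kept, 918 genes were members rather than 709, so some of the 5903 may have had another open start site farther away.

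The open promoter nearest the 5′ end was usually the strongest, and both animals mostly gave the same order. Signal is the authors' value per peak, scaled by library, so promoters of a gene were compared within a library. Taking the mean of both libraries, the 5′-most open promoter was the strongest in 454 of 708 genes (64.1%, 95% Wilson interval 60.5 to 67.6), in 450 by replicate 1 and in 462 by replicate 2. It was the strongest in 412 of the 617 genes with 2 open promoters (66.8%), and in 42 of the 91 genes with 3 or more (46.2%). An even share among promoters is lower where a gene has more of them, so these shares are not directly comparable. The libraries ranked the same promoter strongest in 645 genes (91.1%, interval 88.8 to 93.0). In the 63 other genes, the libraries' mean log2 gap had a median of 0.16, against 1.18 where they gave the same order. With 2 open promoters, a gene whose libraries disagree has gaps of opposite sign, which cancel in the mean. This contrast is therefore partly built in. The Wilson intervals here cover counting error only.

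The strongest and the weakest open promoter of a gene differed by a median of 2.12-fold (log2 1.08, from 0.98 in replicate 1 and 1.18 in replicate 2). They differed by over 2-fold in both libraries in 323 genes and by over 8-fold in 20, and by under 1.5-fold in both in 136. The 5′-most promoter exceeded every downstream one by over 2-fold in both libraries in 232 genes (32.8%). A downstream promoter exceeded it by over 2-fold in both in 71 genes (10.0%). The median log2 gap varied little with distance: it was 1.09 for promoters under 5 kb apart, 1.00 from 5 to 20 kb, 1.10 from 20 to 100 kb and 0.91 beyond 100 kb, over 99, 157, 238 and 123 genes with 2 open promoters.

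**Figure D1:**
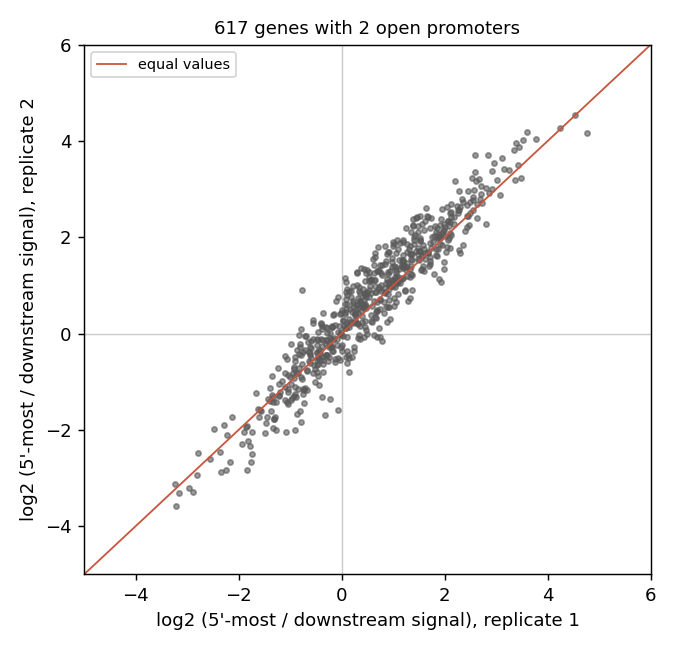
Each point is 1 of the 617 genes with 2 open promoters, with the log2 ratio of the 5′-most to the downstream promoter's signal in replicate 1 on the horizontal axis and in replicate 2 on the vertical axis; the line marks equal values. The points follow the line, with a Pearson correlation of 0.956 across genes.

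Across these 617 genes, the log2 ratio of the 5′-most to the downstream promoter correlated between the animals with a Pearson r of 0.956 and a Spearman coefficient of 0.951. The ratio differed between them by a median of 0.30 and by over 1 in 10 genes. The signal of a gene's 5′-most promoter said little about that of its downstream promoter, with a Pearson r of 0.0953 in log2. The change from replicate 1 to replicate 2 showed almost no correlation between both promoters of a gene (Pearson r -0.00710). These are descriptions across genes that share libraries, depth and annotation, and genes are not replicates.

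Downstream open promoters were weaker than 5′-most ones and far poorer in CpG. The 708 5′-most promoters had a median signal of 1.64 in replicate 1 and 2.45 in replicate 2, and the 815 downstream promoters 1.10 and 1.46. In the 5903 genes counted as having only 1 open promoter region, the medians were 2.10 and 3.17. Counted in steps of the signal scale, the medians were 237 and 323 for 5′-most, 159 and 192 for downstream, and 304 and 418 for the only open promoters. Per peak, members had a median of 1.17 and 1.60, against 1.72 and 2.53 for the 11384 other shared peaks at coding start sites. Signal was over 2-fold higher in replicate 2 at 78 of the 1818 member peaks (4.29%) and in replicate 1 at none, where all shared peaks had 2.61% and 0.0472%. The other shared peaks at coding start sites had 538 of 11384 (4.73%) and 2, so the members' share was close to that of coding promoters at large.

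CpG observed over expected, the CpG count in 500 bp divided by that predicted from the C and G content, had a median of 0.758 at 5′-most and 0.395 at downstream open promoters. It was 0.799 at the only open promoters of other genes. In 1944 shared peaks inside the member genes but over 2 kb from any coding start site, it was 0.238. The median of downstream promoters stood between those of other promoters and the distal peaks of the same genes. At a level of 0.6 or more, 528 of the 5′-most (74.6%) and 216 of the downstream promoters (26.5%) were CpG-rich, against 82.3% of the only open promoters and 2.21% of the distal peaks.

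**Figure D2:**
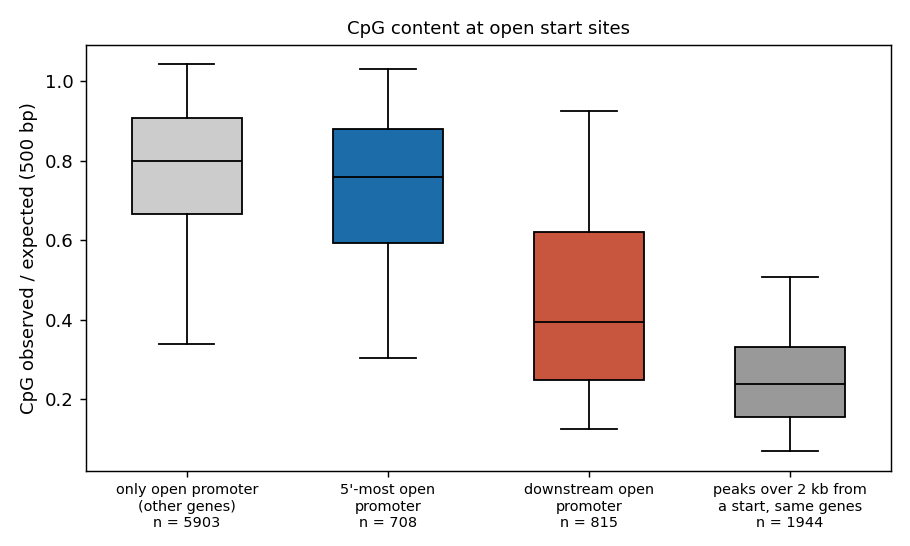
Boxes show the median and the middle 50% of CpG observed over expected in 500 bp around the strongest peak, with whiskers at the 5th and 95th percentiles, for 4 kinds of shared peaks with the n under each box. The medians fall from 0.799 and 0.758 at only and 5′-most open promoters to 0.395 at downstream ones and 0.238 at distal peaks.

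The most common pair was a CpG-rich promoter upstream and a CpG-poor one downstream, in 355 of the 617 genes with 2 open promoters (57.5%). Both were rich in 103 genes, both were poor in 98, and the order was reversed in 61. The CpG-rich promoter was the strongest in 321 of the 416 mixed pairs (77.2%, Wilson interval 72.9 to 80.9). The 5′-most was strongest in 283 of the 355 genes with the rich promoter upstream (79.7%), in 57 of 103 with both rich (55.3%), in 49 of 98 with both poor and in 23 of 61 with the rich one downstream (37.7%). The change from replicate 1 to replicate 2 was also larger at CpG-rich promoters, with a median log2 of 0.58 against 0.39 at CpG-poor 5′-most ones, and 0.59 against 0.37 downstream. Its part in the difference between the libraries' gaps was not tested.

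The annotation behind the downstream promoters was less complete, which bears on the name promoter. A transcript of the GENCODE basic set began at 618 of the 708 5′-most promoters (87.3%) and at 381 of the 815 downstream ones (46.7%). Only transcripts without a coding sequence began at 30 (4.24%) and 287 (35.2%), respectively. In the 287, the median CpG observed over expected was 0.298 and the median signal 1.02 and 1.29. The 477 downstream promoters with a complete coding transcript had 0.502, with 1.20 and 1.61. The strongest peak had its midpoint within 150 bp of the start site in 78.0% of 5′-most promoters, 75.9% of downstream promoters with a complete coding transcript and 50.9% of those with noncoding transcripts only. It did so in 83.3% of the only open promoters, and 150 bp is 30.0% of the 500 bp searched. The values at downstream starts with noncoding transcripts lay closer to those of distal peaks. DNase accessibility does not show transcription, so whether RNA began at any of these sites was not measured.

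Downstream promoters mostly lay in introns. Relative to the transcripts that began at the 5′-most open promoter, 711 of the 815 were intronic (87.2%), 83 exonic and 21 beyond the transcripts' ends. The 5′-most open promoter lay within 500 bp of the annotated 5′ end of its gene in 592 of 708 genes (83.6%). Not all start sites were open. With all annotated start sites under 2 kb apart chained into groups, the member genes had 3168 groups, of which 1506 held a shared peak. The groups are not the open promoters counted above: the 2 open promoters of Ntrk2 fell in 1 group. Of the 1662 closed groups, 1469 (88.4%) had no peak in the larger peak list of either library; how the larger and smaller lists differ in their making is not stated in the sources used here. Every group was open in 157 genes, among them some with a single group, such as Stag2.

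Where coding transcripts were annotated at every open promoter, these more often led to different start codons than to the same one. Of 362 such genes, 220 had no start codon common to any pair of their promoters (60.8%, Wilson interval 55.7 to 65.7), 134 could use the same start codon from all of them (37.0%) and 8 were mixed. The other 347 genes lacked a complete coding transcript at a promoter, and these counts include Huwe1. Among genes with 2 open promoters, different start codons were found in 23 of 60 with promoters under 5 kb apart, 39 of 83 from 5 to 20 kb, 81 of 109 from 20 to 100 kb and 60 of 79 beyond.

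Genes of the synapse and cytoskeleton made the clearest examples. Of 182 genes in 8 lists, 175 had start sites 2 kb or more apart and 56 were members. The lists were compiled with the study of alternative promoters in view, so their shares describe the lists and are not independent of that choice. Beside the 6.1% of all such genes, members were 14 of 21 for synaptic adhesion and scaffold proteins (66.7%) and 11 of 22 for cytoskeleton, anchors and guanine exchange factors. They were 7 of 20 chromatin and DNA methylation enzymes (35%), 8 of 24 signalling genes (33.3%) and 4 of 15 growth factors and receptors (26.7%). Transcription and splicing factors had 9 of 39 (23.1%), imprinted loci 3 of 14 (21.4%), and ion channels and glutamate receptors 1 of 21 (4.76%).

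Ank2 (gene at chromosome 3, 126921612 to 127499350) encodes ankyrin-B, which anchors membrane proteins to the spectrin skeleton. It had 5 open promoters over 501 kb. From 5′ to 3′ their signals were 0.865, 2.40, 1.01, 1.13 and 1.21 in replicate 1 and 1.21, 3.34, 1.14, 1.77 and 1.49 in replicate 2. The promoter next after the 5′-most, 90352 bp inside the gene, was the highest in both animals, and the remaining 4 had means from 1.04 to 1.45. All 5 had complete coding transcripts, and no pair had a start codon in common. CpG observed over expected went from 0.775 at the 5′-most and 0.770 at the fourth to 0.368 at the strongest and 0.208 at the last. Of 11 groups of Ank2 start sites, 6 were closed.

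Nrxn2, a presynaptic adhesion receptor gene, had 3 open promoters, with 3.05, 1.07 and 1.36 in replicate 1 and 4.78, 1.33 and 2.25 in replicate 2, strongest at the 5′ end. Its middle promoter held no footprint in either library. Its relative Nrxn3 had 2, and its 5′-most was the higher by a log2 of 0.57 in replicate 1 and 0.25 in replicate 2.

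Pde4d encodes a phosphodiesterase that breaks down cyclic AMP and makes many long and short forms. It had 5 open promoters over 810 kb, with 0.803, 0.664, 0.726, 1.20 and 2.996 in replicate 1 and 1.07, 0.561, 1.06, 1.02 and 4.45 in replicate 2. The last stood above all others in both animals, with a mean of 3.72 against at most 1.11. Of 14 groups of Pde4d start sites, 9 were closed. Its relatives Pde4a and Pde4b had 2 and 3 open promoters, with mean log2 gaps of 1.21 and 0.83.

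Kalrn encodes kalirin, a guanine exchange factor of dendritic spines, and had 3 open promoters over 310 kb. They had 1.80, 0.962 and 0.955 in replicate 1 and 2.43, 1.72 and 1.39 in replicate 2, falling from 5′ to 3′ in both. Only a transcript without a coding sequence began at the 5′-most. Lsamp had 2, set 1548 kb apart, with 1.90 and 1.00 in replicate 1 and 3.27 and 1.64 in replicate 2, so the CpG-rich upstream promoter shown above was the stronger by a log2 of 0.96 ± 0.05 (SD, n = 2). Dlg2, a postsynaptic scaffold, had 3 weak ones over 1758 kb, all between 0.505 and 0.834 in either library.

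**Figure D3:**
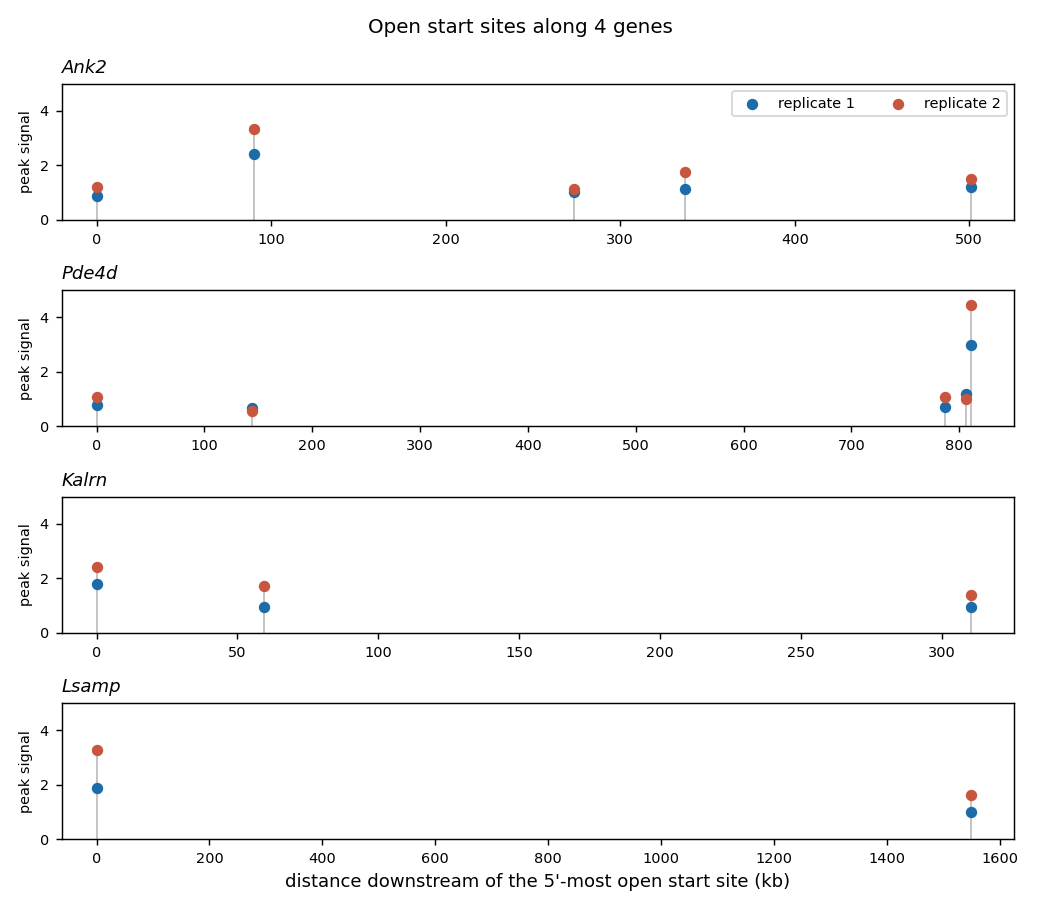
Each panel is a gene, with the distance downstream of the 5′-most open start site in kb on the horizontal axis and the peak signal of each open promoter in replicates 1 and 2 as points on the vertical axis. Ank2 and Pde4d had their highest signals at downstream promoters, and Kalrn and Lsamp at the 5′-most.

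Among growth factors and receptors, Nrg1 and Ntrk2 differed in layout. Nrg1 encodes neuregulin, a ligand of ErbB receptors, and had 0.540 and 0.955 in replicate 1 and 0.978 and 1.60 in replicate 2 at promoters 875 kb apart, the downstream one higher in both. Ntrk2 encodes TrkB, the receptor of brain-derived neurotrophic factor. Its promoters lay 2.12 kb apart and had 2.40 and 0.941 in replicate 1 and 3.77 and 1.21 in replicate 2, with the same start codon available from both. Bdnf, the gene of that ligand and well known for its many promoters, had no shared peak at any of its 9 start sites in the smaller lists, but had peaks in both larger lists.

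Scn2a, a sodium channel of cortical neurons, was the only member among ion channels and glutamate receptors. Its downstream promoter was higher in both animals, with 2.86 against 1.09 in replicate 1 and 3.20 against 1.46 in replicate 2. The 120 bases before the downstream start site held a match to the CTCF consensus, in capitals, that a footprint overlapped in each library.
Scn2a, downstream open promoter (chr2:65668566-65668685, plus strand): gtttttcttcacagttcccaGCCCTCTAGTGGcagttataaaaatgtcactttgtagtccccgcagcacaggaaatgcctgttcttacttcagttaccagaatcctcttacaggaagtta
Of these bases, 115 lay inside the peak.

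Of the regulators and imprinted genes, Crem and Rbfox2 led the transcription and splicing list. Crem, whose internal promoter makes the early repressor ICER, had 3.50 and 1.56 in replicate 1 and 5.85 and 2.02 in replicate 2. Whether either open site of Crem is that internal promoter was not examined. Rbfox2 had 2.25, 2.45 and 1.37 in replicate 1 and 3.56, 3.13 and 1.72 in replicate 2, so that the animals differed on which of the upstream pair was the higher, and the last was the lowest in both. Kdm2a had 3.16 and 3.04 in replicate 1 and 4.98 and 3.66 in replicate 2. Smarca2, a chromatin remodelling ATPase, had 3.79, 0.886 and 1.12 in replicate 1 and 7.46, 1.24 and 1.61 in replicate 2. Inpp5f had 3.72 and 1.56 in replicate 1 and 6.47 and 2.58 in replicate 2, higher at the CpG-poor upstream promoter. Gnas, the imprinted gene of the stimulatory G protein alpha subunit, had 1.06, 1.03 and 2.18 in replicate 1 and 1.81, 1.95 and 3.09 in replicate 2. Its strongest was a CpG-poor site where only a noncoding transcript began, and parental alleles were not told apart.

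**Figure D4:**
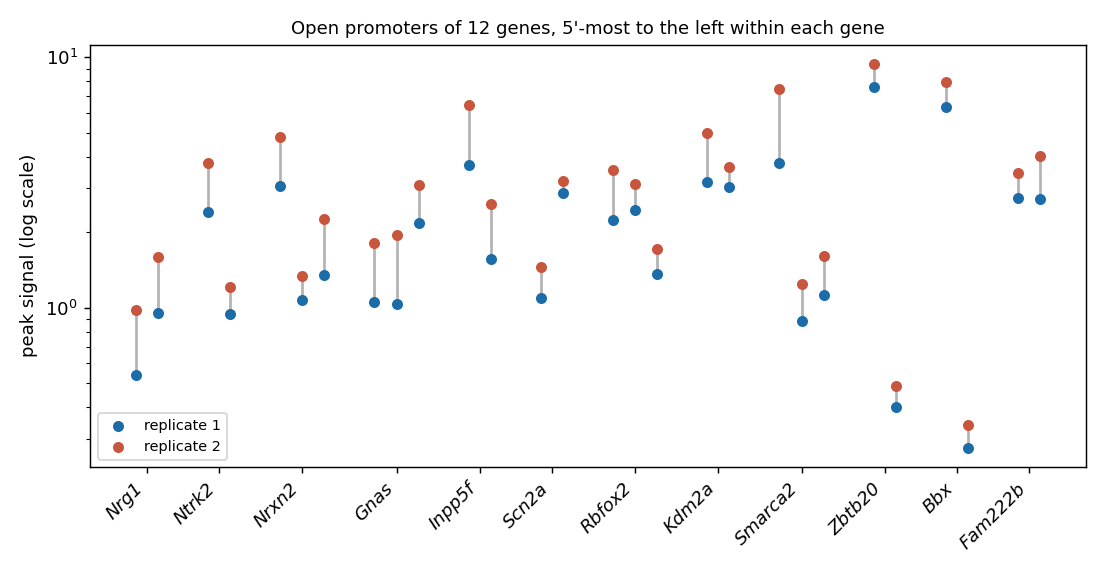
Peak signal, on a log scale, of the open promoters of 12 genes, picked after their values were seen, in replicate 1 and replicate 2, ordered within each gene from the 5′-most on the left; lines join the values of a promoter. Zbtb20 and Bbx show wide gaps between promoters, and Fam222b and Kdm2a narrow ones.

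The widest gaps paired a strong 5′-most promoter with a weak downstream one. Bbx, an HMG-box gene, had 6.35 and 0.277 in replicate 1 and 7.93 and 0.341 in replicate 2 (mean log2 gap 4.53). Tecr, a fatty acid elongation enzyme, had 5.07 and 0.187 in replicate 1 and 7.38 and 0.409 in replicate 2 (4.47). Zbtb20, a zinc finger repressor of hippocampus and cortex, had 7.58 and 0.401 in replicate 1 and 9.41 and 0.485 in replicate 2 (4.26). Chd6, a chromodomain remodeller, and Zmym4 had mean log2 gaps of 3.91 and 3.90. In each the 5′-most was the stronger in both animals. At Zbtb20 only a noncoding transcript began at the strong site, and in Bbx, Chd6 and Zmym4 only noncoding transcripts began at the weak one.

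In 81 genes, every open promoter was above 2.11, the median of all shared peaks at coding start sites. The narrowest gaps among these were at Polr3gl, Junb, Tsc22d4, Pop5 and Fam222b. Fam222b had 2.73 and 2.72 in replicate 1 and 3.45 and 4.05 in replicate 2. Junb, an immediate early transcription factor, had 2.98 and 3.15 in replicate 1 and 5.26 and 5.13 in replicate 2, and its further site lay past the transcripts that begin upstream. The libraries ranked different promoters strongest in all 5. This is partly built in, because they were picked by the mean gap of both libraries, in which gaps of opposite sign cancel.

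The largest spans belonged to adhesion and scaffold genes of the synapse. They were 2184 kb in Cntnap2, 1887 kb in Ptprd, 1758 kb in Dlg2, 1548 kb in Lsamp and 1475 kb in Magi2. In Cntnap2, the downstream promoter was the higher, with 1.22 against 0.775 in replicate 1 and 1.21 against 1.07 in replicate 2. In Ptprd, a receptor phosphatase that organizes synapses, the middle of 3 was the highest, with 1.15 in replicate 1 and 1.40 in replicate 2. Magi2 was highest at its last promoter, with 1.63 and 2.57.

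Besides Ank2 and Pde4d, the most open promoters were in Abr with 5 and, first by name among genes with 4, Atp8b2 and Atxn7l1. Abr, a regulator of small GTPases, had 0.436, 2.82, 0.809, 1.58 and 1.40 in replicate 1 and 0.766, 3.17, 1.57, 1.96 and 1.40 in replicate 2, with its peak signal next after the 5′-most. The CpG contrast was widest in Kif26b, Cmip, Ubr4, Zbtb18 and Cdk14, where the richest and poorest promoters differed in CpG observed over expected by 0.902 to 0.938. Ubr4, a ubiquitin ligase, had 1.02 and 0.0860 there, with signals of 6.72 and 0.920 in replicate 1 and 10.9 and 1.43 in replicate 2. In Cdk14 the CpG-poor promoter was the stronger, with 1.55 against 0.574 in replicate 1 and 2.05 against 0.796 in replicate 2.

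The animals differed most on the order of promoters in Utrn, Kank3, Zdhhc18, Ablim1 and Tnk2. Utrn, the relative of dystrophin, had 0.505 and 0.858 in replicate 1 and 1.02 and 0.546 in replicate 2. Zdhhc18, a palmitoyltransferase, had 1.21 and 1.10 in replicate 1 and 1.36 and 2.36 in replicate 2. With a single library per animal, it was not possible to test these differences.

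Motifs also differed with promoter position, counted as matches on both strands in 300 bp around the strongest peak of a promoter. The SP box (GGGCGG) was found in 69.6% of 5′-most, 34.6% of downstream and 69.7% of only open promoters, and in 64.8% of all shared peaks at coding start sites. The NRF1 consensus, typical of housekeeping promoters, was in 8.33%, 1.72%, 12.6% and 10.5%, and the ETS site (CCGGAAGT) in 4.52%, 1.23%, 8.78% and 7.38%. The CAGATG E-box, which proneural bHLH factors bind, went the other way, with 9.75%, 23.8%, 10.0% and 11.4%. So did the AP-1 site (TGANTCA) of Fos and Jun, with 2.26%, 8.96%, 3.20% and 3.84%, and the CTCF consensus, with 1.27%, 5.77%, 1.76% and 1.64%. In the distal peaks of the same genes, the E-box was in 34.7%, AP-1 in 10.8%, CTCF in 8.33% and the SP box in 7.92%. The remaining motifs (CCAAT for NFY, AAGATGGC for YY1, TGACGTCA for CREB, TATAAA, and the RFX and MEF2 consensus sites) are in the plot of motif shares. Matches of different motifs may overlap, and a match is not a bound site.

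**Figure D5:**
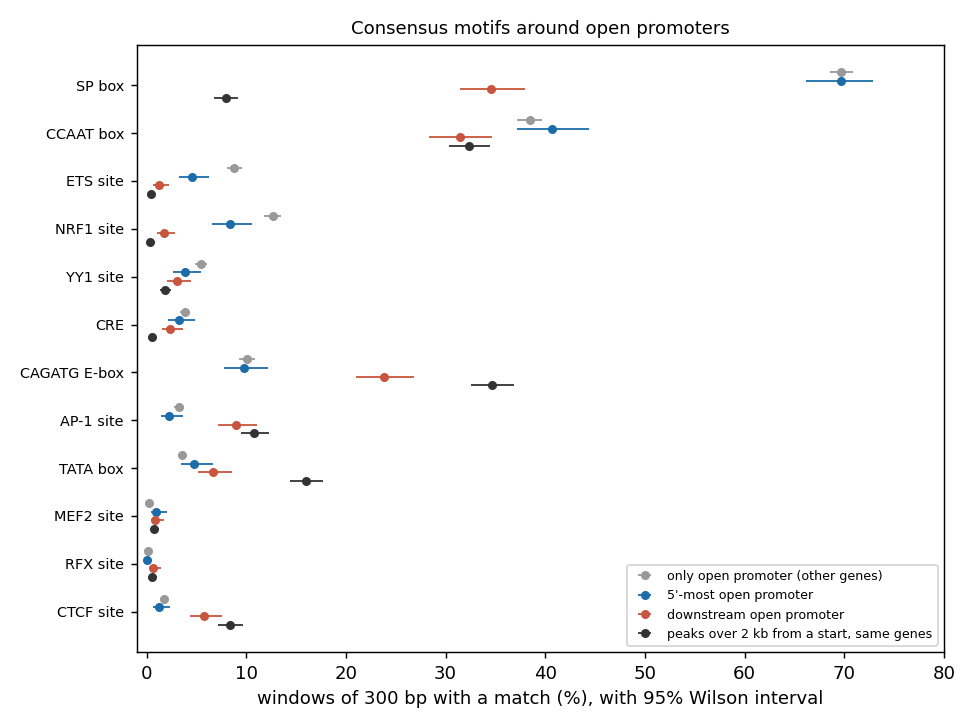
Share of 300 bp windows with a match to each of 12 consensus motifs, in percent with 95% Wilson intervals that cover counting error, at only open, 5′-most and downstream open promoters and at distal peaks of the same genes. For the SP box, NRF1, the E-box, AP-1 and CTCF, downstream promoters lie between 5′-most promoters and distal peaks.

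CpG content moved with these shares. Among CpG-poor promoters alone, the E-box was in 34 of 180 5′-most (18.9%, Wilson interval 13.8 to 25.2) and 174 of 599 downstream (29.0%, 25.6 to 32.8). CTCF was in 4 (2.22%, 0.867 to 5.57) and 47 (7.85%, 5.95 to 10.3), and AP-1 in 6 (3.33%, 1.54 to 7.08) and 61 (10.2%, 8.01 to 12.9). Among CpG-rich promoters, CTCF was in 5 of 528 5′-most (0.947%, Wilson interval 0.405 to 2.20) and in 0 of 216 downstream (upper limit 1.75), so its higher downstream share was found in CpG-poor promoters only. Also among CpG-rich promoters, AP-1 was in 10 5′-most (1.89%) and 12 downstream (5.56%), and the E-box in 35 (6.63%) and 20 (9.26%). There the SP box was in 80.1% of 5′-most and 78.7% of downstream ones, and among CpG-poor ones in 38.9% and 18.7%. The strata did not make CpG content equal. Among CpG-poor promoters, the median CpG observed over expected was 0.425 at 5′-most and 0.319 at downstream ones, and among CpG-rich ones 0.813 and 0.802. CpG-poor only open promoters had the E-box in 20.4%, CTCF in 3.63%, AP-1 in 5.83% and the SP box in 40.2%. No difference between these shares was tested.

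Footprints, short stretches protected from DNase I, were found at nearly all of these promoters, as at other open sites. A footprint lay in the peaks of 97.5% of 5′-most promoters in replicate 1 and 97.0% in replicate 2, and of 95.6% and 94.7% of downstream ones. The shares were 98.0% and 98.3% at only open promoters and 94.6% and 94.0% at distal peaks of the same genes. A 5′-most or downstream promoter counted a footprint in any of its peaks, while distal peaks were counted singly, so these units are unlike. Per peak, members had 91.6% and 89.8%, and the other shared peaks at coding start sites 91.1% and 89.4%, both below the distal peaks. Of the 47 downstream promoters with a CTCF match, 43 had it overlapped by a footprint in both libraries, as had all 9 of the 5′-most. For the E-box this was 39 of 194 downstream (20.1%) and 12 of 69 5′-most (17.4%), and for the SP box 136 of 282 (48.2%) and 287 of 493 (58.2%). Only open promoters of other genes had 87 of 104 CTCF matches (83.7%), 61 of 593 E-box matches (10.3%) and 2616 of 4115 SP box matches (63.6%) covered in both libraries, so CTCF matches were covered more often than E-box matches there too.

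The spacing limit of 2 kb admitted L3mbtl3 (2015 bp), Lin54 (2048 bp) and Cers2 (2103 bp) last, and left out Lmo7 (1995 bp), Sgk1 (1925 bp) and Maz (1905 bp). At its outer start sites in genome order, L3mbtl3 had 0.484 and 1.21 in replicate 1 and 0.803 and 1.82 in replicate 2. Lmo7 had 1.24 and 0.747 in replicate 1 and 1.17 and 1.14 in replicate 2. In 1510 genes, start sites with shared peaks were all under 2 kb apart.

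The tissue label was checked against marker genes. In both libraries, 5 of 9 genes of cortical excitatory neurons had a shared peak at a start site, among them Neurod2, Neurod6 and Emx1, as had 1 of 6 interneuron genes, 3 of 6 astrocyte, 3 of 6 oligodendrocyte and 2 of 6 microglia genes. None of 6 endothelial and none of 6 liver and muscle genes had one. None of these markers was a member. In bulk tissue, fewer cells using a promoter and less accessibility per cell cannot be told apart, and the open promoters of a gene may belong to different cells.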

How the data were processed

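DNase-seq maps places where DNase I cuts chromatin. Per the deposited description files, peaks and footprints were made from each library's own mm10 alignments without pooling; for the caller and its thresholds, the sources used here give no entry. The deposited signal of a peak was scaled by library, on a scale not given, in whole steps of 0.00692 in replicate 1 and 0.00758 in replicate 2; depth in reads is not known from the files. The smaller list of each library (60071 and 70563 peaks) was used, and peaks overlapped by 1 bp or more. Where several peaks of replicate 2 overlapped, the highest was taken. The deposited footprint lists gave positions, with the authors' score column constant on every line; lists of cut rates were not used.

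Start sites were those of all transcripts of GENCODE M21 coding genes, without the mitochondrion, on GRCm38.p6, the assembly of mm10; no peak ran past a chromosome's end. A promoter took the highest signal of its peaks in each library, and CpG, motifs and offsets came from its strongest peak. Start codons were those of transcripts with a complete coding start. The selection was tested on simulated data. Python 3.11.15, pandas 2.3.3 and scipy 1.17.1 were used.

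The members and lists were chosen with earlier results of these data known, and the motifs, the CpG strata, the distal comparison, the offsets and the distance bins after the files were seen. Named genes were, for each list, the 2 with the most member peaks, and over all members the 5 with the most promoters, the widest and narrowest gaps, the longest spans, the largest CpG differences and the largest disagreement between libraries; Nrxn3, Pde4a, Pde4b and Bdnf were chosen after their values were seen. Of the genes this rule names, 1 is not reported here.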

Additional observations from a re-analysis of the deposited data

How the results depend on the processing

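Of 119 values recomputed under 14 other settings, 92 stayed within the set limits, 27 moved and none changed sign. The limits were 1.5-fold for counts, the 95% interval for shares and CpG medians, and 1 SD over libraries for log2 medians. Only the log2 medians could change sign. The gap sets the strongest promoter over the weakest, so it was nearly bound to stay positive. Counting signal in steps divides each library by a constant, so ratios within a library could not change there. The larger lists gave 3559 member peaks in 1231 genes, a median log2 gap of 1.27 and a downstream CpG median of 0.364. The stronger 50% of peaks gave 1006 peaks in 423 genes and a log2 ratio of median member signal to other coding promoter peaks of -0.50, against -0.61. Protein-coding transcripts alone gave 1091 peaks in 430 genes and a downstream CpG median of 0.495. Basic transcripts alone gave 720 peaks in 287 genes and 0.520, with the 5′-most strongest in 59.9% and different start codons in 66.9%. Different start codons were found in 52.6% at a spacing of 1 kb (downstream CpG 0.442) and 66.9% at 5 kb. With peaks near other coding genes kept they were 55.6%, with CpG medians of 0.774 and 0.447. A window of 1000 bp gave a downstream CpG median of 0.353 and a signal ratio of -0.53. Without either replicate in turn, member peaks ranged from 2217 to 2942 and member genes from 813 to 1040. The log2 gap ranged from 1.04 to 1.26 and the signal ratio from -0.69 to -0.53. Without replicate 1 there were 2942 peaks, over 1.5 times the 1818 found with both, and without replicate 2 there were 2217. Neither of these settings requires overlap. Leaving out transcripts with an incomplete start was added after the data were examined and moved no value. The cause of these shifts was not tested. Whether libraries rank the same promoter strongest needs both, so it has no value without a replicate. No paired analysis was possible because there was only 1 group.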

Other observations

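Chromosome X held 15 of the 709 genes with alternative open promoters (2.12%), where it held 4.32% of all coding genes and 2.77% of those with start sites 2 kb or more apart and a shared peak. Apart from Huwe1, 14 had separate open promoters, and the 5′-most was the strongest in 7 of them. Their strongest promoters had a median signal of 1.40, against 2.63 on the autosomes. Clcn5, a chloride and proton exchanger, had 3.04 and 0.505 in replicate 1 and 5.64 and 0.432 in replicate 2. Mid1, a ubiquitin ligase, was highest at the last of 3, with 1.85 in replicate 1 and 1.24 in replicate 2. Pak3, a kinase of dendritic spines, had 0.567 and 0.809 in replicate 1 and 0.591 and 1.18 in replicate 2. Females carry an inactive X copy, and these libraries do not tell the copies apart. Clcn5, Mid1 and Pak3 were chosen after their values were seen.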
